A study of Arabidopsis thaliana with 12 samples.

Results

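The comparison described here is the genotype by treatment interaction, that is, the difference between the transcript response of erf114 roots to methyl jasmonate (MeJA) and the response of Col roots to the same treatment. It was chosen by rule as the MeJA effect in erf114 minus the MeJA effect in Col, and it used all 12 of the 12 libraries of the series. The libraries were RNA-seq of whole roots from 5-day-old Arabidopsis thaliana seedlings in 4 groups of 3, which were Col on MS medium, Col with MeJA for 3 h, erf114 on MS medium and erf114 with MeJA for 3 h. Col is the reference accession. The line erf114 carries a mutation in the ERF-family transcription factor gene ERF114, and neither the kind of allele nor the number of lines behind it is stated in the labels. The treatment protocol gives 15 µM MeJA and the series' design text gives 50 µM, so the dose is not settled. The study's stated purpose was to examine the part of ERF114 in jasmonate (JA) signalling.

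JA is a lipid-derived hormone of wounding and defence. Its active conjugate is bound by the F-box receptor COI1, which leads to degradation of the JAZ repressors and frees MYC2 and related factors to activate JA-responsive genes, among them the JAZ genes and genes that make and inactivate JA. In roots JA acts together with ethylene, a gaseous hormone whose receptors repress the pathway until ethylene binds them and whose factor EIN3 is held low by the F-box proteins EBF1 and EBF2. Another gene set that shares factors of the ERF family is the low-oxygen response, which shifts metabolism towards fermentation.

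Depth ran from 20546417 to 20897031 estimated counts per library, with 21209 to 21845 genes above 0, and 18326 genes were tested. Differences are log2 fold changes from edgeR's quasi-likelihood test on the counts. The standard error (SE) after ± was derived as the size of the log2 fold change divided by the square root of the test's F value. A gene is called at an adjusted p of at most 0.05 by the Benjamini-Hochberg method over all 18326 genes. Levels are deposited FPKM, which are scaled by gene length and library total, and a value after ± on an FPKM level is the SD of 3 libraries. The labels do not say whether replicates came from separate cultures, so the p-values measure the spread between these libraries, which may be technical. Col MS replicate 1 and erf114 MeJA replicate 3 stood apart from their groups on the second principal component, which held 17.1% of the variance, and erf114 MS replicate 3 stood apart on the first, which held 59.4%. All 10 shoot photosynthesis markers were present in every library, with a summed level of 348.5 to 1403 FPKM in Col MS, 268.5 to 633.1 in Col MeJA, 541.5 to 1220 in erf114 MS and 182.5 to 806.8 in erf114 MeJA. The 5 seed storage genes summed to at most 1.82 FPKM in the 6 Col libraries and 0.18 FPKM in erf114 MS replicate 1, but to 31.57 to 63.86 FPKM in the other 5 erf114 libraries. The root markers for hair, endodermis, cap, xylem and phloem were present in all groups, and no member of these lists had an unadjusted interaction p under 0.05. Between the genotypes on MeJA, 1 of the 7 endodermis markers was called lower in erf114, where 0.382% of all genes were called in either direction. None of the other root markers was called between the genotypes.

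ERF114 itself was read first. It had 3, 0 and 0 counts in Col MS, 59, 50 and 42 in Col MeJA, 0, 1 and 1 in erf114 MS, and 13, 13 and 10 in erf114 MeJA. All 3 Col MeJA libraries lay above all 3 erf114 MeJA libraries, and counts on MS were too few to compare. ERF114 passed the filter only through the Col MeJA libraries, at 2.94, 2.51 and 2.13 FPKM. Their higher level is therefore no independent check of the labels. On MeJA the value of erf114 against Col was -1.95 ± 0.39 and was not called (edgeR adjusted p = 0.071). The gene rose on MeJA in both genotypes, by 5.55 ± 0.59 in Col and by 4.21 ± 0.75 in erf114 (edgeR adjusted p = 2.5e-05 and 0.0015). The difference of these effects was -1.35 ± 1.62 and was not called (edgeR adjusted p = 0.72).

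Few genes were called for a difference in MeJA response between the genotypes, which does not show that few genes differed. There were 5 called genes, 0.0273% of the 18326 tested, and in all 5 the difference was above 0, that is, the effect was more positive in erf114. They were the ethylene receptor gene ETR2, the ethylene-forming oxidase gene AT1G77330 (also ACO5), the acyl-ACP desaturase gene FTM1 (also SAD6), the light-stress gene ELIP1 and the acyltransferase-family gene AT2G39980. In 4 of the 5 the fitted effect was below 0 in Col and above 0 in erf114, in ELIP1 it was of the same sign and larger in erf114, and no called gene had a weaker response in erf114. In bulk roots a change in the number of cells of a type and a change in RNA per cell cannot be told apart. At an unadjusted p under 0.05 there were 1107 genes, 6.04% of those tested, with 747 higher (4.08%) and 360 lower (1.96%) in the effect of erf114. The 5 calls rest on the full set of libraries. None remained without Col MS replicate 3, without any 1 of the 3 Col MeJA libraries, without erf114 MS replicate 1 or 2, or without erf114 MeJA replicate 1. There were 4 without Col MS replicate 2, 2 without erf114 MS replicate 3, 1 without erf114 MeJA replicate 3, 7 without Col MS replicate 1 and 8 without erf114 MeJA replicate 2. Other tests called more genes, with 41 in DESeq2 and 46 in limma voom with library weights, and both of these sets held all 5. DESeq2 called all 20 genes of smallest p and voom 18 of them, so the genes given below as not called are so in edgeR's test.

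**Figure D1:**
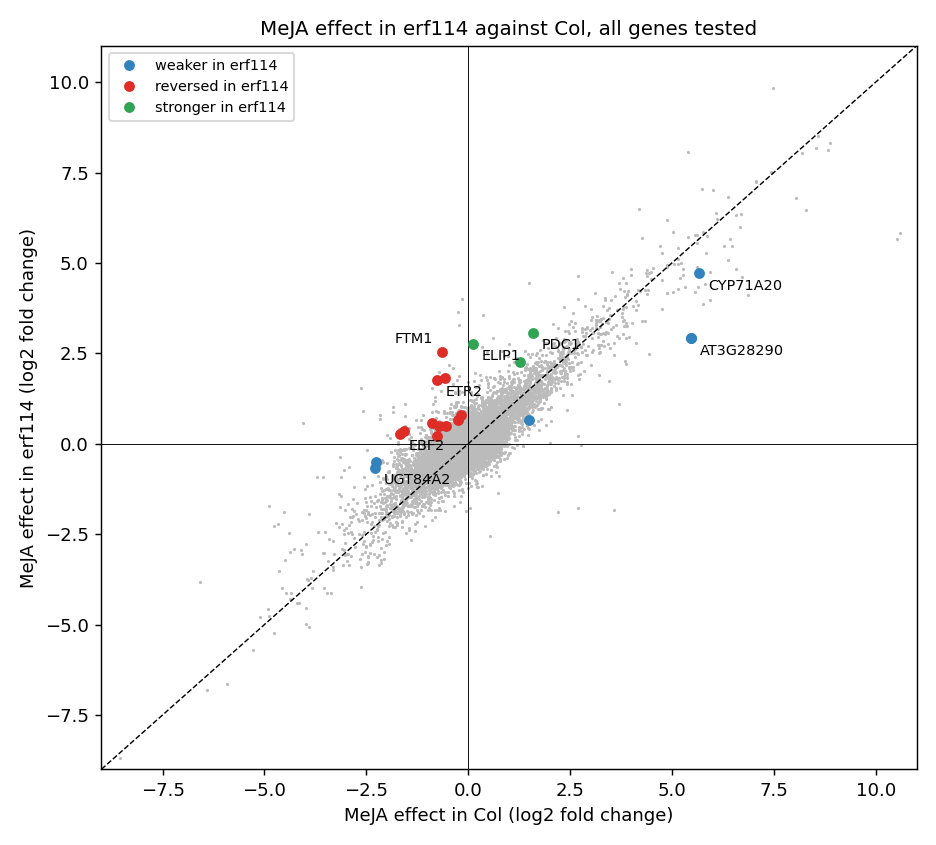
MeJA effect in Col (x axis) against MeJA effect in erf114 (y axis), both as log2 fold change, for 18326 genes (grey), with the 20 genes of smallest interaction p coloured by the kind of difference and the dashed line marking equal effects. ETR2, FTM1 and ELIP1 lie above the line near a Col effect of 0, while AT3G28290 and CYP71A20 lie below it with large effects in both genotypes.

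The promoters of 3 genes are shown because ETR2 had the smallest p, and ELIP1 and MYB12 were the only genes among the 20 of smallest p whose window held a G-box. Each window runs from 250 bases before to 50 bases after the annotated start in RefSeq's TAIR10.1, given 5′ to 3′ on the strand of the gene. The capitals mark the G-box CACGTG, a motif bound by MYC2-type factors among others. ETR2 lies at chr3:8254309-8254608 on the plus strand, ELIP1 at chr3:8085620-8085919 on the minus strand and MYB12 at chr2:19476076-19476375 on the plus strand.
ETR2: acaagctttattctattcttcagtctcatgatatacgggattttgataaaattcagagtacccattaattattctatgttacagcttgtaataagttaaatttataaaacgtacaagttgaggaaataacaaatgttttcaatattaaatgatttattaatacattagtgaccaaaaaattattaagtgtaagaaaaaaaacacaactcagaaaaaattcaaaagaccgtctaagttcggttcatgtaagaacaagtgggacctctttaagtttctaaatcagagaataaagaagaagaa
ELIP1: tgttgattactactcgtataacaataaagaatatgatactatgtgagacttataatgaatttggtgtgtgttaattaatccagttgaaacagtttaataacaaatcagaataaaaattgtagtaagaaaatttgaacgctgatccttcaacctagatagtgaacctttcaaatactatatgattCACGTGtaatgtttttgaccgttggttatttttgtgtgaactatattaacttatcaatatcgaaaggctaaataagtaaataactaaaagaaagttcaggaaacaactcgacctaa
MYB12: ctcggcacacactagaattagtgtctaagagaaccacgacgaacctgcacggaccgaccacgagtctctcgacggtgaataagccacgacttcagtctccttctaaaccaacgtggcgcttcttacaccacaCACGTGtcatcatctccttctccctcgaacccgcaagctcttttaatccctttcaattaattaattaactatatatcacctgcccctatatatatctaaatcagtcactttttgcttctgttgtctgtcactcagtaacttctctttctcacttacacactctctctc
Both strands were searched for the G-box and for the GCC box GCCGCC, the element bound by ERF factors, and the letters of these motifs do not overlap. The G-box began 66 bases before the start of ELIP1 and 118 bases before that of MYB12. A G-box was in 1 of the 5 windows of called genes and in 2 of the 20 of smallest p, against 8.92% of the 18264 windows of genes tested that could be read. A GCC box was in none of these 20 windows, against 2.65% of all. Among genes with an unadjusted p under 0.05, a G-box was in 7.39% of 744 windows with a higher and 11.4% of 360 windows with a lower effect in erf114. A match of letters describes a window and does not show binding.

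ETR2 (AT3G23150, chromosome 3, 8254559 to 8257888) encodes an ethylene receptor. Its level was 6.63, 8.36 and 7.08 FPKM in Col MS, 4.15, 4.62 and 3.55 in Col MeJA, 6.43, 7.04 and 4.41 in erf114 MS and 15.35, 13.75 and 19.44 in erf114 MeJA. The 3 erf114 MeJA libraries lay above the other 9, and the 3 Col MeJA libraries lay below all but 1 library of the MS groups. ETR2 fell by 0.77 ± 0.21 on the log2 scale in Col (edgeR adjusted p = 0.021) and rose by 1.76 ± 0.21 in erf114 (edgeR adjusted p = 7e-05). The difference of 2.54 ± 0.30 corresponds to a 5.80-fold difference between the MeJA effects (edgeR adjusted p = 0.021).

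AT1G77330 (chromosome 1, 29062945 to 29064637), also ACO5, encodes an ACC oxidase, the enzyme of the last step of ethylene synthesis. It stood at 162.08, 193 and 186.97 FPKM in Col MS and at 111.14, 122.45 and 122.36 in Col MeJA. In erf114 the values were 157.34, 162.24 and 155.07 on MS and 190.51, 179.9 and 165.71 on MeJA. The groups did not overlap within either genotype, and MeJA libraries were the lower ones in Col and the higher ones in erf114. The gene fell by 0.54 ± 0.09 in Col and rose by 0.48 ± 0.09 in erf114 (edgeR adjusted p = 0.0012 and 0.0028), a difference of 1.03 ± 0.13 (edgeR adjusted p = 0.022). The deposited means in erf114 were 158.2 FPKM on MS and 178.7 on MeJA. Counts in the fit are scaled between libraries, so the size of the fitted rise depends on that scaling. On MS the value of erf114 against Col was -0.30 ± 0.09, not called (edgeR adjusted p = 0.85). Limma on log2(FPKM + 1) gave a difference of 0.77 that was not called (adjusted p = 0.096).

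FTM1 (AT1G43800, chromosome 1, 16577521 to 16579722), also SAD6, encodes a stearoyl-acyl-carrier-protein desaturase, an enzyme that places a double bond in a fatty acid. Its level was 12.28, 7.99 and 10.43 FPKM in Col MS, 7.65, 5.8 and 5.68 in Col MeJA, 8.92, 6.1 and 8.25 in erf114 MS and 38.8, 31.02 and 38.41 in erf114 MeJA. The 3 erf114 MeJA libraries were far above the other 9, and the 3 Col MeJA libraries lay below the 3 Col MS libraries. FTM1 rose by 2.53 ± 0.27 in erf114 (edgeR adjusted p = 2.6e-05), while its value of -0.64 ± 0.27 in Col was not called (edgeR adjusted p = 0.11). The difference was 3.18 ± 0.38, or 9.04-fold, the largest of the 5 called genes (edgeR adjusted p = 0.021).

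ELIP1 (AT3G22840, chromosome 3, 8084405 to 8085669) encodes an early light-inducible protein of the chlorophyll-binding family, known from light stress in green tissue. It stood at 17.37, 13.01 and 15.68 FPKM in Col MS, 16.7, 15.73 and 16.04 in Col MeJA, 10.69, 12.05 and 16.76 in erf114 MS and 85.16, 56.39 and 72.7 in erf114 MeJA. The first 3 groups overlapped, and the erf114 MeJA libraries lay above all of them. ELIP1 rose by 2.76 ± 0.25 in erf114 (edgeR adjusted p = 6.9e-06) and stood at 0.11 ± 0.24 in Col (edgeR adjusted p = 0.77), a difference of 2.65 ± 0.34 (edgeR adjusted p = 0.022). Over replicates 1 to 3 the shoot photosynthesis markers summed to 1403, 348.5 and 383.4 FPKM in Col MS and 280, 268.5 and 633.1 in Col MeJA. In erf114 they summed to 580.3, 1220 and 541.5 FPKM on MS and 597.6, 182.5 and 806.8 on MeJA. The library lowest in these markers was also the lowest in ELIP1 in Col MS, Col MeJA and erf114 MeJA. In erf114 MS it was the highest in ELIP1. All 10 of these markers had a difference of MeJA effects above 0, with a median of 0.46 and none at an unadjusted p under 0.05, and their part in the ELIP1 result was not tested.

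AT2G39980 (chromosome 2, 16687673 to 16690182) encodes a protein of the HXXXD-type acyltransferase family. Its level was 2.43, 1.94 and 2.36 FPKM in Col MS, 1.6, 1.33 and 1.45 in Col MeJA, 2.73, 2.34 and 2.85 in erf114 MS and 7.77, 6.59 and 8.21 in erf114 MeJA. Again only the erf114 MeJA libraries were high, and the Col MeJA libraries were the lowest. The gene rose by 1.82 ± 0.21 in erf114 (edgeR adjusted p = 4.2e-05), stood at -0.56 ± 0.22 in Col (edgeR adjusted p = 0.088), and differed by 2.39 ± 0.30 (edgeR adjusted p = 0.022).

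**Figure D2:**
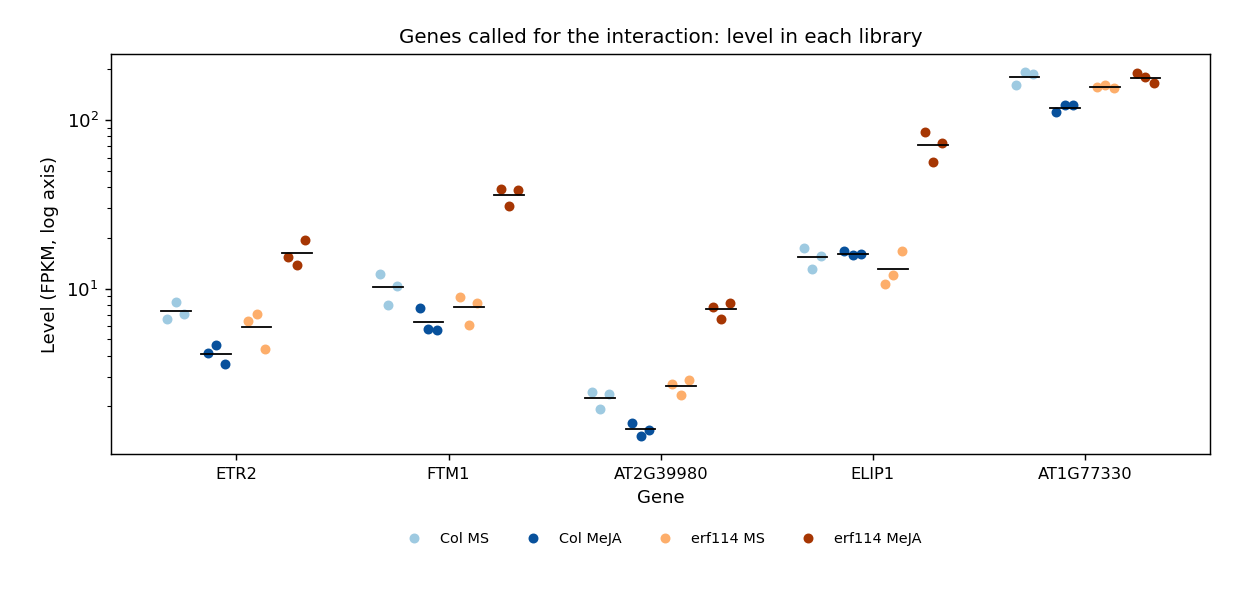
Level in FPKM (log axis) of the 5 called genes in each of the 12 libraries, with the group mean as a black line. The 3 erf114 MeJA libraries lie above the other 9 for ETR2, FTM1, AT2G39980 and ELIP1, whereas AT1G77330 is low in Col MeJA and overlaps between erf114 MeJA and Col MS.

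For all 5 called genes the genotypes differed on MeJA and were not called different on MS. The comparison of erf114 with Col on MeJA shares its libraries with the interaction, so its values are given beside it and not as a separate line of evidence. On MeJA the 5 genes were higher in erf114 by 0.72 ± 0.09 for AT1G77330 to 2.63 ± 0.27 for FTM1, each with an edgeR adjusted p of at most 0.0061, where 70 of 18326 genes (0.382%) were called. On MS their values ran from -0.54 ± 0.26 for FTM1 to 0.11 ± 0.21 for AT2G39980, and 6 genes (0.0327%) were called in that comparison. The seed storage signal that set erf114 libraries apart was as high in erf114 MS replicates 2 and 3 (57.98 and 51.97 FPKM) as on MeJA, and in those 2 libraries ETR2 stood at 7.04 and 4.41 FPKM, FTM1 at 6.1 and 8.25 FPKM, AT2G39980 at 2.34 and 2.85 FPKM, ELIP1 at 12.05 and 16.76 FPKM and AT1G77330 at 162.24 and 155.07 FPKM. The part of that signal in the 5 calls was not tested.

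Of the 18326 genes, 4 fell in Col and rose in erf114 with both effects called, and none did the opposite. They were ETR2, AT1G77330, MYB12 and AT3G52740. MYB12, a regulator of flavonol synthesis, stood at 12.52, 13.32 and 15.62 FPKM in Col MS, 7.28, 7.3 and 6.94 in Col MeJA, 11.18, 10.14 and 12.89 in erf114 MS and 15.83, 12.24 and 12.88 in erf114 MeJA. The 3 Col MeJA libraries lay below the other 9. In erf114 the MS and MeJA libraries overlapped, with means of 11.4 and 13.65 FPKM. These levels are as deposited, whereas the counts in the fit are scaled between libraries, so the fitted rise depends on that scaling. MYB12 fell by 0.88 ± 0.15 in Col and rose by 0.57 ± 0.15 in erf114 (edgeR adjusted p = 0.0013 and 0.019), but the difference of 1.45 ± 0.22 missed the threshold (edgeR adjusted p = 0.072). AT3G52740, an uncharacterized protein gene, fell by 0.72 in Col and rose by 0.49 in erf114, with a difference of 1.21 ± 0.22 (edgeR adjusted p = 0.19). Its erf114 libraries also overlapped, at 23.61, 23.04 and 25.18 FPKM on MS and 30.84, 29.23 and 21.83 on MeJA.

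Ethylene signalling genes outside ETR2 had differences on both sides of 0, and none of them was called. Of 8 tested members of that list, which held receptors, EIN3 and the EBF genes, 1 was called (0.0273% of all genes) and 4 had an unadjusted p under 0.05, all with a higher effect in erf114 (4.08% of all genes), and the median difference was 0.29 against -0.01 for all genes. EBF2, whose protein targets EIN3 for degradation, stood at 46.53, 35.17 and 33.97 FPKM in Col MS, 12.95, 11.02 and 11.2 in Col MeJA, 43.07, 42.32 and 32.63 in erf114 MS and 29.98, 35.84 and 48.89 in erf114 MeJA. Its 3 Col MeJA libraries lay apart from the other 9, which overlapped. EBF2 fell by 1.68 ± 0.26 in Col (edgeR adjusted p = 0.00054), stood at 0.28 ± 0.25 in erf114 (edgeR adjusted p = 0.56), and the difference of 1.96 ± 0.36 was not called (edgeR adjusted p = 0.19). EBF1 showed a difference of 0.94 ± 0.37 and the receptor ERS2 one of 0.49 ± 0.21, neither called (edgeR adjusted p = 0.64 for both). EBF1 was uneven in erf114 MeJA, at 80.6, 82.66 and 136.31 FPKM, and its first 2 values there lay within the range of Col MS, 77.67 to 105.21 FPKM. The other 3 receptors stood near 0 or below it, with 0.03 ± 0.12 for ETR1, 0.09 ± 0.19 for ERS1 and -0.37 ± 0.33 for EIN4, as did EIN3 at -0.33 ± 0.37.

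Low-oxygen genes had the highest median of the 31 lists apart from seed storage. None of the 16 tested was called for the interaction, but all 16 differences were above 0, where 49.2% of all genes were, and 8 had an unadjusted p under 0.05 with a higher effect in erf114, where 4.08% of all genes did. The median was 0.80. In the comparison on MeJA, 6 of the 16 were called higher in erf114, where 0.327% of all genes were, and in 6 of the 16 the 3 erf114 MeJA libraries lay above the other 9, as in 2.38% of all genes. The list was chosen with earlier results of these data known, so these counts describe it and are no independent support. They do not say whether the called genes respond to low oxygen. The called genes are not members, but the list held only 16 genes, so this does not set them apart from that response. The values of LBD41 and HRA1 were uneven between replicates.

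PDC1 (AT4G33070), a pyruvate decarboxylase that opens ethanol fermentation, stood at 8.6, 8.83 and 8.9 FPKM in Col MS, 30.74, 20.45 and 24.37 in Col MeJA, 15.53, 13.97 and 20.34 in erf114 MS and 112.36, 127.63 and 98.7 in erf114 MeJA. The 4 groups did not overlap, except that the highest erf114 MS and the lowest Col MeJA library were close. PDC1 rose in both genotypes, by 1.59 ± 0.19 in Col and 3.06 ± 0.20 in erf114 (edgeR adjusted p = 6.7e-05 and 3.9e-07), and the difference of 1.47 ± 0.26 was not called (edgeR adjusted p = 0.19). PCO2 (AT5G39890), a plant cysteine oxidase that marks ERF factors for oxygen-dependent breakdown, stood at 1.96, 1.5 and 2.27 FPKM in Col MS, 1.53, 1.39 and 1.47 in Col MeJA, 1.73, 1.55 and 2.28 in erf114 MS and 8.33, 4.1 and 4.14 in erf114 MeJA. It was high only in the erf114 MeJA libraries, rose in erf114 by 1.88 ± 0.30 (edgeR adjusted p = 0.00062), and its difference of 2.12 ± 0.44 was not called (edgeR adjusted p = 0.33). SUS4, a sucrose synthase, stood between 5.5 and 11.03 FPKM in the 9 libraries outside erf114 MeJA and at 20.22, 33.71 and 17.21 in that group. It rose in erf114 by 1.62 ± 0.25 (edgeR adjusted p = 0.00049), with a difference of 1.36 ± 0.35 (edgeR adjusted p = 0.63).

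Other low-oxygen genes differed in another way. For the haemoglobin HB1, erf114 libraries lay above Col libraries on both media, at 67.51, 70.54 and 88.16 FPKM against 38.65, 39.82 and 39.17 on MS and at 73.17, 80.65 and 58.38 against 33.83, 18.18 and 24.54 on MeJA. Its difference of MeJA effects was 0.76 ± 0.30 (edgeR adjusted p = 0.64). The lactate dehydrogenase gene LDH (AT4G17260) stood at 24.02, 18.01 and 19.24 FPKM in Col MeJA and between 32.26 and 39.6 FPKM in the other 9 libraries, a difference of 0.99 ± 0.26 that was not called (edgeR adjusted p = 0.64). ADH1, the alcohol dehydrogenase that follows PDC1, ranged from 60.79 to 386.82 FPKM with overlap between all groups and a difference of 0.57 ± 0.49. LBD41 had the largest difference of the list, 2.33 ± 1.18, with 222.57 FPKM in erf114 MeJA replicate 1 against 32.21 and 51.5 in the other 2 libraries of the group (edgeR adjusted p = 0.64).

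Light signalling genes were the next list by median. Of 8 tested, 1 was called, ELIP1 (0.0273% of all genes), and 4 had an unadjusted p under 0.05, all higher in the effect of erf114 (4.08% of all genes), with a median of 0.71. ELIP2, the close relative of ELIP1, stood between 2.7 and 4.98 FPKM in the 9 other libraries and at 14.21, 8.63 and 7.96 in erf114 MeJA. It rose in erf114 by 1.44 ± 0.27 (edgeR adjusted p = 0.0023) and differed by 1.60 ± 0.40, not called (edgeR adjusted p = 0.62). BBX24, a B-box protein of light signalling, stood at 58.6 to 95.2 FPKM in the 9 other libraries and at 114.53, 104.53 and 105.43 in erf114 MeJA, with a difference of 0.90 ± 0.17 (edgeR adjusted p = 0.22). BBX25 differed by 1.07 ± 0.29 and rose in erf114 by 1.87 (edgeR adjusted p = 2.7e-05). HY5, the central activator of light responses, had a difference of 0.53 ± 0.24 (edgeR adjusted p = 0.64), and its erf114 MeJA libraries, at 42.9, 38.71 and 23.68 FPKM, overlapped the other groups. The shoot photosynthesis markers moved the same way, as given beside ELIP1, and their part in the light list was not tested either.

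BBX28, a further B-box gene among the 20 of smallest p, followed the pattern of EBF2 and not of ELIP1. It stood at 14.1, 11.44 and 13.98 FPKM in Col MS, 4.59, 4.54 and 3.67 in Col MeJA, 12.21, 9.57 and 9.77 in erf114 MS and 13.7, 7.72 and 11.06 in erf114 MeJA. Its 3 Col MeJA libraries lay below the other 9. BBX28 fell by 1.58 ± 0.26 in Col (edgeR adjusted p = 0.00077), stood at 0.36 ± 0.25 in erf114, and differed by 1.94 ± 0.36, not called (edgeR adjusted p = 0.19).

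In the flavonoid list 6 genes were tested and all 6 differences were above 0, where 49.2% of all genes were. The median was 0.61, 3 had an unadjusted p under 0.05 (4.08% of all genes, higher in erf114) and none was called. TT4, the chalcone synthase that starts flavonoid synthesis, stood at 346.84, 261.47 and 245.3 FPKM in Col MS, 472.78, 398.77 and 397.01 in Col MeJA, 318.84, 297.5 and 282.31 in erf114 MS and 739.53, 624.05 and 772.1 in erf114 MeJA. The 3 erf114 MeJA libraries were the highest, and Col MeJA lay between them and the MS groups. TT4 rose by 1.57 ± 0.23 in erf114 (edgeR adjusted p = 0.00036), stood at 0.60 ± 0.23 in Col (edgeR adjusted p = 0.079), and differed by 0.96 ± 0.32 (edgeR adjusted p = 0.64). The chalcone isomerase TT5, the hydroxylase F3H and the flavonol synthase FLS1 had differences of 0.25 ± 0.18, 0.26 ± 0.21 and 0.15 ± 0.22.

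**Figure D3:**
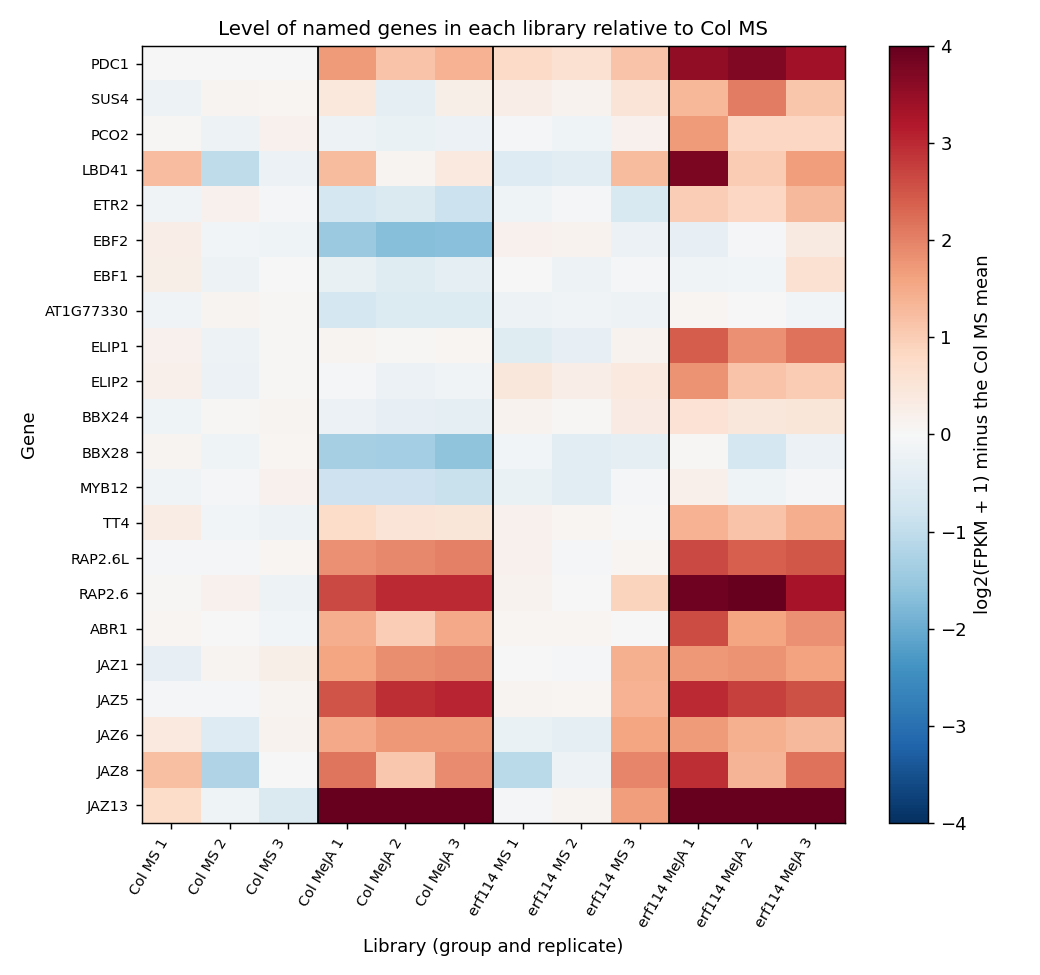
Level of 22 named genes (rows) in each of the 12 libraries (columns), as log2(FPKM + 1) minus the mean of Col MS, with red above and blue below that mean. ETR2, ELIP1 and PCO2 are raised only in erf114 MeJA, EBF2, BBX28 and MYB12 are lowest in the 3 Col MeJA libraries, and JAZ13 is raised on MeJA in both genotypes.

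Responses that were weaker in erf114 came in both directions and none was called. UGT84A2, a glucosyltransferase of phenylpropanoid acids, stood at 7.42, 7.8 and 10.2 FPKM in Col MS, 1.94, 1.72 and 1.25 in Col MeJA, 8.72, 9.59 and 8.24 in erf114 MS and 5.28, 4.51 and 3.76 in erf114 MeJA. MeJA libraries lay below MS libraries in both genotypes, and the gap was smaller in erf114. UGT84A2 fell by 2.29 ± 0.20 in Col and by 0.67 ± 0.18 in erf114 (edgeR adjusted p = 4.2e-06 and 0.021), a difference of 1.63 ± 0.27 (edgeR adjusted p = 0.14). AT2G28690, of a family of unknown function, fell by 2.26 ± 0.24 in Col and stood at -0.51 ± 0.21 in erf114 (edgeR adjusted p = 2.8e-05 and 0.14), with a difference of 1.76 ± 0.32 (edgeR adjusted p = 0.19).

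Among the 20 genes of smallest p, the largest weaker induction was at AT3G28290 (chromosome 3, 10547441 to 10549401) and AT3G28300 (chromosome 3, 10565674 to 10567634), which the annotation names AT14A and describes as a putative transmembrane protein. The 2 genes are both 1961 bases long and differ at 0 bases, their counts were equal in every library, and reads from one cannot be told from the other. The level given for each was 0.56, 0.48 and 0.25 FPKM in Col MS, 16.03, 19.35 and 20.24 in Col MeJA, 0.23, 0.26 and 0.23 in erf114 MS and 1.24, 1.66 and 1.45 in erf114 MeJA. Both genotypes responded, and every Col MeJA library was far above every erf114 MeJA library. The level rose by 5.46 ± 0.25 in Col and by 2.91 ± 0.30 in erf114 (edgeR adjusted p = 3e-08 and 1.8e-05), and the difference of -2.55 ± 0.44 was not called (edgeR adjusted p = 0.17). It was called without Col MS replicate 1, at -2.90 (edgeR adjusted p = 0.034), in DESeq2, at -2.53 (adjusted p = 0.00022), in limma on log2(FPKM + 1), at -2.79 (adjusted p = 8.4e-05), and on log2(FPKM + 0.1), at -3.00 (adjusted p = 0.014), and in voom with library weights, at -3.33 (adjusted p = 0.0027).

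AT1G30820, a gene of the CTP synthase family, stood at 18.44, 28.05 and 28.59 FPKM in Col MS, 64.95, 67.15 and 65.57 in Col MeJA, 32.2, 29.41 and 29.33 in erf114 MS and 41.02, 42.67 and 33.43 in erf114 MeJA. It rose by 1.48 ± 0.11 in Col and 0.66 ± 0.11 in erf114 (edgeR adjusted p = 1e-06 and 0.00065), a difference of -0.82 ± 0.15 (edgeR adjusted p = 0.19). CYP71A20, a cytochrome P450, rose from 1.96 ± 0.52 to 92.9 ± 11 FPKM in Col and from 2.73 ± 0.26 to 57.9 ± 9 FPKM in erf114, with no overlap between the MeJA groups. The effects were 5.67 ± 0.15 and 4.71 ± 0.14 (edgeR adjusted p = 5.7e-10 and 1.7e-09), and the difference was -0.96 ± 0.19 (edgeR adjusted p = 0.24).

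**Figure D4:**
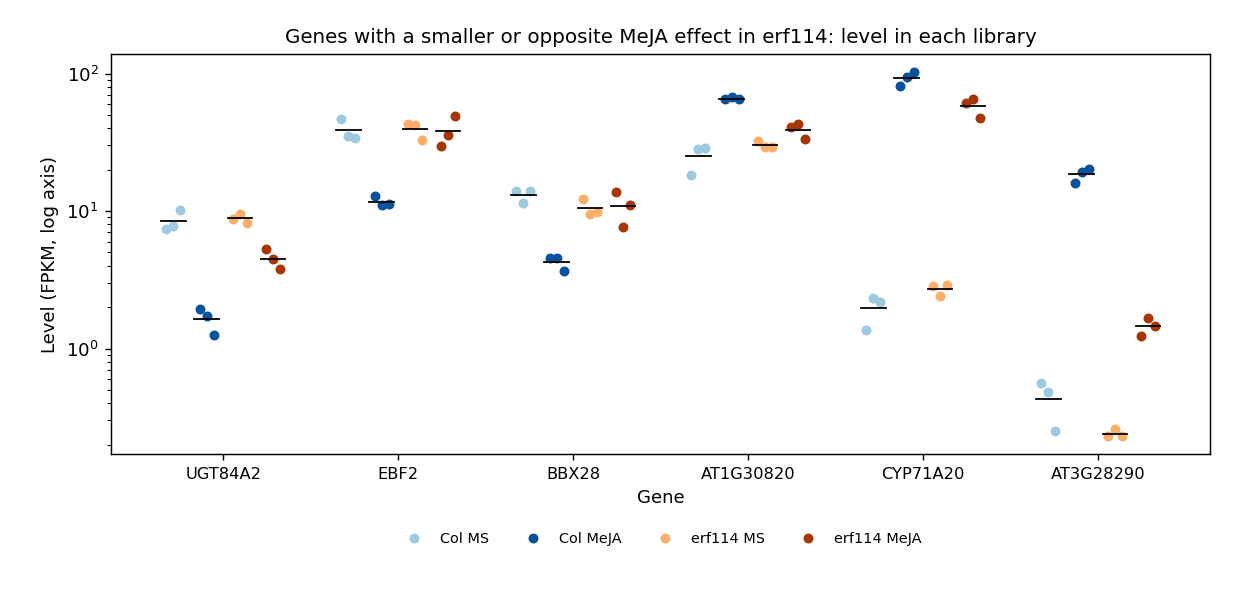
Level in FPKM (log axis) in each library, with the group mean as a black line, for 6 genes whose MeJA effect in erf114 was smaller than in Col or of the opposite sign, none of them called. UGT84A2, EBF2 and BBX28 are lowest in Col MeJA, and AT3G28290 reaches 16.03 to 20.24 FPKM in Col MeJA against 1.24 to 1.66 in erf114 MeJA.

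None of the tested genes in the lists of JAZ repressors, JA synthesis, JA inactivation, JA receptor and MYC factors or the output branches was called for the interaction. The JAZ list gave 0 calls among 13 tested, 0 at an unadjusted p under 0.05, 5 differences above 0 and a median of -0.21. Its summed level was uneven in erf114 MS, at 834.2 FPKM in replicate 3 against 314.8 and 322.2 in replicates 1 and 2. A high MS library lowers the fitted MeJA effect in erf114 and widens the spread, and its part in the negative median was not tested. In Col 9 of the 13 rose and in erf114 8 rose, where 10.4% and 10.2% of all genes rose. JAZ1 rose in both genotypes, from 71.56, 97.24 and 107.64 to 272.27, 335.19 and 344.92 FPKM in Col and from 90.28, 87.15 and 246.28 to 301.28, 318.6 and 281.3 FPKM in erf114. The third erf114 MS library was the high one, and the difference of -0.46 ± 0.44 was not called (edgeR adjusted p = 0.67). JAZ13 rose by 5.28 ± 0.62 and 4.84 ± 0.57, a difference of -0.43 ± 0.85. JAZ8, named in the title of the series, stood at 28.45, 4.49 and 11.71 FPKM in Col MS, 55.02, 25.84 and 45.98 in Col MeJA, 5.04, 10.15 and 47.89 in erf114 MS and 98.32, 31.8 and 55.73 in erf114 MeJA. Its groups overlapped within both genotypes, and its difference of 0.43 ± 1.14 (edgeR adjusted p = 0.87) has an SE larger than the value.

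Genes of JA synthesis and inactivation gave no calls either. Their summed levels were also highest in replicate 3 within erf114 MS. Synthesis genes summed to 964.4 FPKM there against 696.4 and 631.6 in replicates 1 and 2, and catabolism genes to 249.5 against 126 and 118. Of 14 tested biosynthesis genes 9 differences were above 0, where 49.2% of all genes were, with a median of 0.08. There were 0 at an unadjusted p under 0.05. AOS, which makes the first committed intermediate, had a difference of 0.39 ± 0.60, the cyclase AOC4 one of 0.34 ± 0.24 and LOX4 one of 0.40 ± 1.14. On the other side, JAR1, which conjugates JA to isoleucine, stood at 36.32, 55.7 and 51.02 FPKM in Col MS, 42.46, 44.16 and 42.65 in Col MeJA, 49.48, 52.44 and 49.99 in erf114 MS and 32.38, 34.76 and 31.98 in erf114 MeJA. Its 3 erf114 MeJA libraries lay below the other 9, it fell by 0.32 ± 0.10 in erf114 (edgeR adjusted p = 0.039), and its difference of -0.27 ± 0.14 was not called (edgeR adjusted p = 0.64). The lowest fitted difference of the list was that of the lipoxygenase LOX2, -4.76 ± 6.60, which had 0 counts over the 3 Col MS libraries and 11 over the 3 erf114 MS libraries, so that value depends on how the fit treats 0 counts and gives no size. On MeJA LOX2 held 568 counts in Col and 508 in erf114, uneven between libraries in both. Of 9 tested catabolism genes 1 had an unadjusted p under 0.05, where 6.04% of all genes did. It was CYP94B1, which oxidises JA-isoleucine. CYP94B1 stood at 129.89, 120.02 and 130.15 FPKM in Col MeJA and at 223.45, 238.27 and 179.83 in erf114 MeJA, with all 6 MS libraries between 8.53 and 14.62, and its difference of 0.78 ± 0.29 was not called (edgeR adjusted p = 0.64). JOX3, a JA-inactivating oxygenase, rose by 8.89 ± 0.29 and 8.31 ± 0.27, a difference of -0.58 ± 0.47. In the list of COI1, adaptors and MYC and JAM factors 1 of 9 differences was above 0, where 49.2% of all genes were. The median was -0.36, with 0 at an unadjusted p under 0.05. MYC2 had a difference of -0.36 ± 0.35 (edgeR adjusted p = 0.68).

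Both output branches of JA signalling were also without calls. The 5 tested MYC-branch genes, markers of the wound response, had a median difference of 0.09, and VSP2 rose by 7.05 ± 0.20 in Col and 7.25 ± 0.20 in erf114, a difference of 0.19 ± 0.25 (edgeR adjusted p = 0.74). All 6 tested genes of the ERF-branch, which JA and ethylene activate together, had a difference above 0, where 49.2% of all genes did. The median was 0.64, and 1 gene had an unadjusted p under 0.05, where 6.04% of all genes did. That gene was the chitinase PR3, at 49.99, 35.41 and 38.51 FPKM in Col MS, 25.32, 24.11 and 23.4 in Col MeJA, 47.9, 45.75 and 40.65 in erf114 MS and 32.78, 38.22 and 37.32 in erf114 MeJA. PR3 fell by 0.74 ± 0.20 in Col (edgeR adjusted p = 0.019) and stood at -0.00 ± 0.20 in erf114, a difference of 0.74 ± 0.28 (edgeR adjusted p = 0.64). ORA59, the activator of this branch, fell by 3.31 ± 0.31 in Col and fell by 2.68 ± 0.29 in erf114 (edgeR adjusted p = 8.3e-06 and 3.2e-05).

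In ERF group X, the subfamily that holds ERF114, 3 of 6 tested members stood higher in all erf114 MeJA libraries than in the other 9, as did 2.38% of all genes. None of the 6 was called for the interaction, 2 had an unadjusted p under 0.05 with a higher effect in erf114, where 4.08% of all genes did, and the median was 0.29. RAP2.6L stood at 5.96, 5.88 and 6.61 FPKM in Col MS, 24.39, 26.11 and 28.03 in Col MeJA, 7, 5.89 and 6.61 in erf114 MS and 43.25, 36.66 and 39.36 in erf114 MeJA. The MS groups overlapped and the MeJA groups did not. RAP2.6L rose by 2.15 ± 0.15 in Col and 2.92 ± 0.15 in erf114 (edgeR adjusted p = 6.7e-07 and 6.8e-08), a difference of 0.78 ± 0.20 (edgeR adjusted p = 0.64). RAP2.6 had a difference of 0.70 ± 0.33 and ABR1 one of 1.04 ± 0.45, and in both the 3 erf114 MeJA libraries lay above the other 9. ERF112 stood at -0.34 ± 0.30 and ERF109 at -0.11 ± 1.05 (edgeR adjusted p = 0.66 and 0.97). ERF115 had too few counts to be tested.

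**Figure D5:**
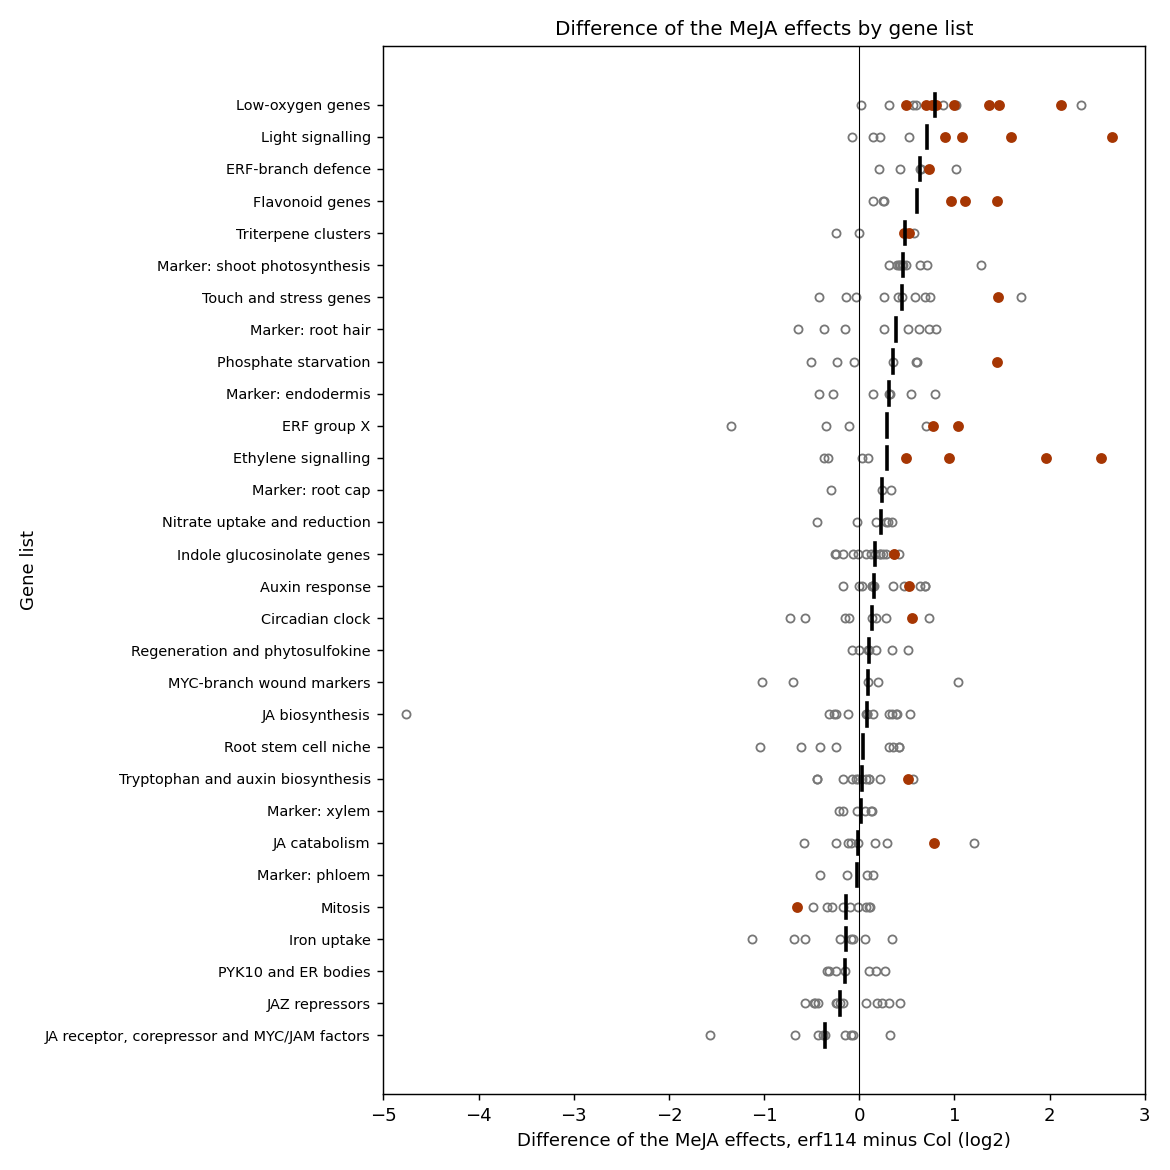
Difference of the MeJA effects, erf114 minus Col (log2), for every tested member of 30 gene lists, ordered by the list median (black bar), with filled points at an unadjusted p under 0.05. The low-oxygen, light, ERF-branch and flavonoid lists have the highest medians, the JAZ list and the list of JA receptor and MYC factors the lowest, and seed storage genes are not drawn.

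An unadjusted p under 0.05 was found for 6.04% of all genes, and a difference above 0 for 49.2%. In a list of 10 to 15 genes, 1 gene at that p is near the first share and is no result about the list. Among the remaining lists, 11 touch and stress genes were tested, with a median of 0.45 and 8 differences above 0. There were 0 called and 1 at an unadjusted p under 0.05. That gene was the cold-response factor CBF1, at 1.45 ± 0.65, and its relative CBF2 stood at 1.70 ± 0.79 (edgeR adjusted p = 0.64 for both). Over 7 phosphate starvation genes the median was 0.35 and over 8 root hair markers 0.39, also with 0 called. Among 15 indole glucosinolate genes 1 had an unadjusted p under 0.05, CYP81F4 with a difference of 0.37, and the median was 0.16. Among 13 tryptophan and auxin biosynthesis genes the only one was TSB2, at 0.51, and among 13 auxin response genes it was IAA14, at 0.52, with medians of 0.03 and 0.16. The PYK10 and ER body list, the root system of beta-glucosidases stored in endoplasmic reticulum bodies, had a median of -0.15 over 7 genes and the triterpene cluster list one of 0.48 over 6. In the triterpene list 2 of the 6 had an unadjusted p under 0.05 with a higher effect in erf114, where 4.08% of all genes did. None of the 6 was called. Their median for erf114 against Col was -0.60 on MS and -0.34 on MeJA. Among 10 mitosis genes the cytokinesis syntaxin KNOLLE was the only one with an unadjusted p under 0.05 and a lower effect in erf114, at -0.65 ± 0.22. Of 8 iron uptake genes 6 fell in each genotype, where 11.5% of all genes fell in Col and 8.59% in erf114, with a median difference of -0.14.

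In edgeR's fit, the median size of induction by MeJA was close in the 2 genotypes, and the median size of repression was lower in erf114. These medians depend on the scaling between libraries and are given for that fit only. With limma on log2(FPKM + 1) and log2(FPKM + 0.1), the median difference over all genes shifted by -0.208 and -0.247. Both shifts are larger in size than the 0.19 of the repressed genes below. The 1052 genes with a mean effect of at least 1 had a median effect of 1.68 in Col and 1.72 in erf114, and a median difference of -0.00. The 848 genes with a mean effect of at most -1 had medians of -1.56 in Col and -1.36 in erf114. Their median difference was 0.19, with 529 of the 848 differences above 0, where 49.2% of all genes were. Of the 747 genes with an unadjusted p under 0.05 and a higher effect in erf114, 236 were repressed less in erf114, 374 had effects of opposite sign and 137 were induced more. Of the 360 with a lower effect, 74 were induced less, 222 had effects of opposite sign and 64 were repressed more. Of these 596 genes with effects of opposite sign, 4 had both effects called. By class the 1107 genes were 28% weaker, 53.84% of opposite sign and 18.16% stronger. Over all genes tested the shares were 37.71, 34.65 and 27.64%. An unadjusted p under 0.05 also arises where there is no difference, so these are not counts of genes shown to differ. A difference of at least 1 was fitted for 366 genes (2%) and of at most -1 for 141 genes (0.769%), and the 5 called genes are the part of these that passed the test.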

How the data were processed

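Transcript levels were measured by RNA-seq in 12 root libraries. Estimated counts, TPM and FPKM per gene were deposited in a table for each library. Aligner, counter and build are not stated there or in the labels. The count column is headed as read counts per the file headers, but between 1.542 and 1.718% of its entries were not whole, and these estimated counts were rounded. The deposited TPM values served only to find the smallest entry. The deposited FPKM values served for the filter, for levels and for alternatives. A gene not listed in a library was set to 0. All 23719 gene identifiers matched RefSeq's TAIR10.1, which gave the symbols, coordinates and promoters. Depth was 20546417 to 20897031 estimated counts per library, with a biological coefficient of variation of 17.9%, which limits genes of few counts.

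Genes with FPKM of at least 1 in at least 3 of the 12 libraries (18326) were tested in R 4.3.3 with edgeR 4.0.16, using TMM factors, a mean per group, 8 residual degrees of freedom, the quasi-likelihood test and Benjamini-Hochberg adjustment at 0.05. Counts per gene are normalised in the fit, whereas FPKM levels are as deposited. The script was tested on simulated data. Alternatives were median-of-ratios scaling, other filters, DESeq2 1.42.0, limma 3.58.1 on log2(FPKM + 1) and log2(FPKM + 0.1), voom with library weights, a robust spread, replicate blocks and leaving out libraries. A gene is weaker, reversed or stronger by the fitted effects in the 2 genotypes. Named genes are the called genes, the genes of smallest p up to 20, ERF114, ERF115, ERF109 and JAZ8, and up to 4 members per list with the largest difference, if a group mean reached 5 FPKM. Further list members, named after seeing their values, are given too. The 31 lists held 279 genes, of which 278 were in the files. The members and lists were chosen with earlier results of these data known. ERF110 was not analysed here.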

Additional observations from a re-analysis of the deposited data

Results flagged for a closer look

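The 5 called genes were flagged because their MeJA effect differed between Col and erf114 by a test of the difference itself. The differences, erf114 minus Col on the log2 scale, were 2.39 for AT2G39980, 2.65 for ELIP1, 2.54 for ETR2, 3.18 for FTM1 and 1.03 for AT1G77330, with edgeR adjusted p-values of 0.021 for ETR2 and FTM1 and 0.022 for the other 3. With 3 libraries in a group, single libraries were not tested as outliers.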

How the results depend on the processing

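All 20 genes of smallest p kept the sign of their difference in all 24 alternative settings in which they had a value. They were chosen by their p in these same libraries, so a kept sign was likely from the start and is no separate support. The 5 calls were also 5 with median-of-ratios scaling, without a filter and with a robust spread, and 4 with a mean FPKM of at least 5, where AT2G39980 was filtered out. With 1 library left out, the range was 0 to 8 calls (0 to 8 positive, 0 to 2 negative, 0 to 2 weaker, 0 to 6 reversed, 0 to 1 stronger), and 7 of the 12 such settings gave 0. Over these settings the genotype calls ran from 3 to 16 on MS and 19 to 133 on MeJA, and the MeJA calls from 2814 to 4371 in Col and 2588 to 4109 in erf114. The cause of the changes below was not tested.

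DESeq2 gave 41 calls (35 positive, 6 negative, with 12 weaker, 21 reversed and 8 stronger), 19 genotype calls on MS and 233 on MeJA. Limma voom with library weights, which gave Col MS replicate 1 a weight of 0.161 and erf114 MeJA replicate 3 one of 0.329, made 46 calls (39 positive, 7 negative, with 10 weaker, 24 reversed and 12 stronger), 18 genotype calls on MS and 1331 on MeJA, and 6658 MeJA calls in Col and 5970 in erf114. Limma on log2(FPKM + 1) made 6 calls with 2 negative and 2 weaker, and 5419 MeJA calls in erf114, and with log2(FPKM + 0.1) these were 6, 2, 2 and 5352. Those FPKM were not rescaled between libraries, and the median difference over all genes shifted by -0.208 and -0.247. Without Col MS replicate 1 and erf114 MS replicate 3 there were 0 interaction calls of any kind, 3 genotype calls on MS and 136 on MeJA. Without Col MS replicate 1 and erf114 MeJA replicate 3, a pair chosen after seeing the data, there were also 0 interaction calls of any kind.

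The labels do not say what a replicate number shares. Every same-numbered pair correlated above 0.1 between Col MeJA and Col MS (0.225 to 0.427), Col MS and erf114 MS (0.187 to 0.289) and Col MeJA and erf114 MS (0.186 to 0.241). The 3 pairs of groups with erf114 MeJA did not, at -0.289 to 0.112 with erf114 MS, -0.462 to 0.707 with Col MS and -0.215 to 0.397 with Col MeJA, so the numbers were not taken to pair the samples of the interaction. With the replicate block over all groups there were 6 interaction calls. With the replicate block within genotype there were 2, FTM1 and AT2G39980, both positive and reversed, and 0 stronger, while ETR2 (adjusted p = 0.18), ELIP1 (adjusted p = 0.058) and AT1G77330 (adjusted p = 0.18) were not called in edgeR, with 3 genotype calls on MS and 8 on MeJA, and ERF109 stood at 0.16.

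Differences of genes far from the threshold changed sign. CLH1 stood at 0.03 with log2(FPKM + 1), TT5 at -0.00 and VSP2 at -0.04 with log2(FPKM + 0.1), and ERF109 at 0.99, JAZ6 at 0.03, JAZ1 at 0.01 and VSP2 at -0.07 with voom weights. Without the first pair of libraries ERF109 stood at 0.97, JAZ5 at 0.01, JAZ6 at 0.11, JAZ1 at 0.25 and VSP2 at -0.12, and without the second JAZ8 at -0.66, LOX4 at -0.63, AOS at -0.38 and VSP2 at -0.08. With 1 library left out, the ranges were -0.66 to 1.42 for ERF109, -0.68 to 1.91 for JAZ8, -0.85 to 0.12 for JAZ5, -0.85 to 0.47 for JAZ6, -0.73 to 0.20 for JAZ1, -1.60 to 0.84 for JAZ13, -0.53 to 1.75 for LOX4, -0.13 to 0.88 for AOS and -2.42 to 0.25 for TAT3. At this depth and spread ERF115 and ERF114 on MS could not be resolved.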
